A study of Mus musculus with 15 samples.

Results

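The epidermal growth factor (EGF) family genes measured here were 10 named mouse genes, the ligand genes Areg, Ereg, Hbegf, Tgfa, Btc, Epgn and Nrg1 and the receptor genes Egfr, Erbb2 and Erbb3, taken from 54838 gene identifiers by their names. Each is reported whatever its values, but the list was chosen with earlier results of these data known. All 10 were found once in the deposited tables. RNA sequencing covered 15 libraries, 3 in each of 5 groups. The 4T1 cells are a mouse mammary carcinoma line, sequenced as cells recovered from the lungs of BALB/c mice 7 days after tail vein injection (4T1 in vivo) and as cells kept in a dish in DMEM with serum (4T1 in vitro). Lung epithelial cells, titled by the surface protein EpCAM, were sorted from lungs that had received 800000 4T1 cells of a labelling line 7 days earlier. They came from the metastatic niche under the treatment label shSox9, from the niche with the treatment label control, and from distal lung, also labelled control. Each epithelial replicate pooled 5 lungs. The labels do not say whether the 4T1 libraries are separate cultures or animals, and the p-values of those groups then describe only library-to-library spread, which may be technical. Tail vein injection places cells in the lung directly, and all 4T1 libraries come from 1 cell line. The labels do not state which cells carried the Sox9 hairpin.

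EGF family ligands are made as membrane proteins and are released when metalloproteases, ADAM17 above all, cut them at the cell surface. Amphiregulin (Areg), TGF-alpha (Tgfa) and epigen (Epgn) bind the EGF receptor, HB-EGF (Hbegf), betacellulin (Btc) and epiregulin (Ereg) bind it and ErbB4, and neuregulin 1 (Nrg1) binds ErbB3 and ErbB4. ErbB2 has no known ligand of its own and acts as the partner of the other receptors, and ErbB3 has little kinase activity and signals through its partner. In the lung these receptors are known for roles in epithelial growth and repair, and in mammary carcinoma for driving proliferation.

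Libraries held 15907316 to 30421705 expected counts. CPM here is a gene's count scaled to its library's total after TMM scaling, and a gene with 0 counts in a library may still have had up to 3, which is 0.0985 to 0.230 CPM depending on the library. Sox9 averaged 60.5 ± 23.8 CPM in niche libraries labelled shSox9 and 50.5 ± 15.5 CPM in niche libraries (SD, n = 3 each). The gene named by the label was thus not lower under it in these bulk libraries. Sox9 averaged 311 ± 49.1 CPM in 4T1 in vivo and 6.29 ± 0.609 CPM in distal libraries. How much of the Sox9 RNA in either niche group came from 4T1 cells was not tested. Several marker lists moved between the epithelial groups. The summed CPM of 10 alveolar type 2 markers was 34503 to 61839 in niche libraries labelled shSox9, 11559 to 14943 in niche libraries and 247197 to 329799 in distal libraries. Fibroblast markers (6 genes) summed to 10136 to 16298, 12217 to 13990 and 3662 to 4257 CPM in the same 3 groups, and macrophage markers (8 genes) to 103 to 465, 1392 to 1549 and 182 to 299 CPM. Epcam itself averaged 28.1 ± 4.85, 56.0 ± 23.1 and 104 ± 11.3 CPM. A panel of 12 genes with at least 10 CPM in every 4T1 library and at most 0.5 CPM in every distal library stood at 20.05% ± 5.40 of its 4T1 in vivo level in niche libraries labelled shSox9, at 22.7% ± 7.13 in niche libraries and at 1.36% ± 0.196 in distal libraries (SD, n = 3 each). The part of these cell types in the differences below was not tested. The words epithelial and epithelium below name the sorted libraries as they are labelled, not their cell make-up. In bulk RNA, fewer cells of a type and less RNA per cell cannot be told apart.

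**Figure D1:**
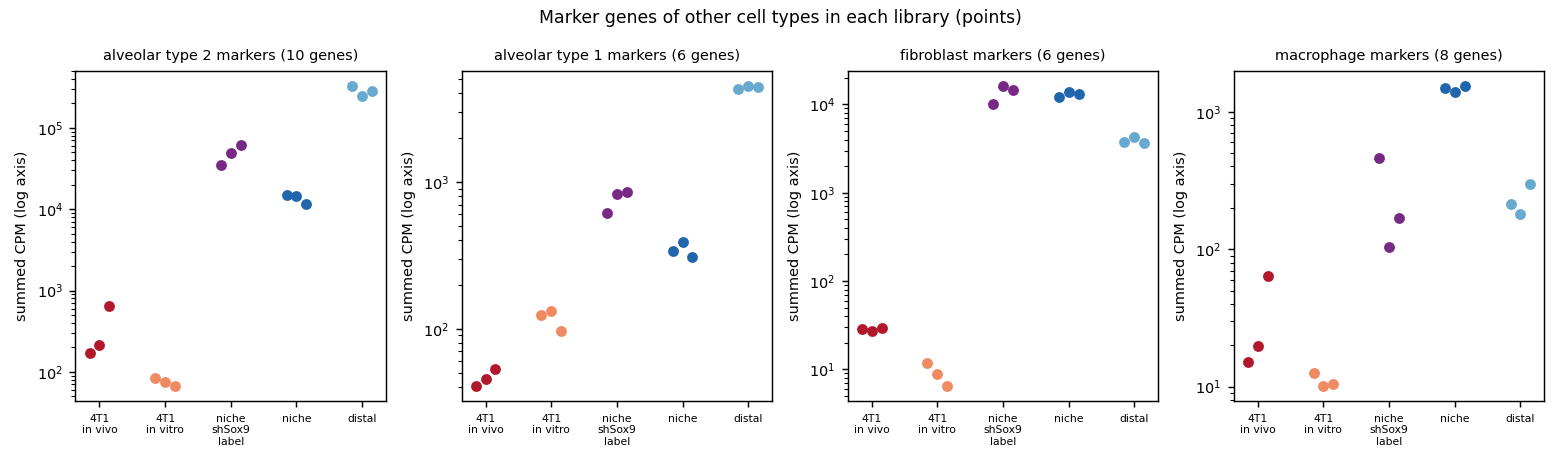
Summed CPM after TMM scaling (log axis) of marker genes of alveolar type 2 cells, alveolar type 1 cells, fibroblasts and macrophages, with 1 point per library in the 5 groups. Distal libraries are highest for both alveolar lists, niche libraries are highest for macrophages at 1392 to 1549 CPM, and both niche groups lie at 10136 to 16298 CPM for fibroblasts.

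Compared per transcript length, on the deposited TPM scale, Hbegf had the highest mean of the family ligands in each of the 5 groups. It made up 63.9% ± 0.734 of the summed ligand TPM in 4T1 in vivo, 73.1% ± 1.48 in 4T1 in vitro, 58.5% ± 4.39 in niche libraries labelled shSox9, 67.9% ± 4.79 in niche libraries and 41.9% ± 6.77 in distal libraries (SD, n = 3 each). The 7 ligands together summed to 223 ± 10.3 TPM in 4T1 in vivo, 163 ± 21.6 TPM in 4T1 in vitro, 78.4 ± 13.9 TPM in niche libraries labelled shSox9, 94.5 ± 20.5 TPM in niche libraries and 37.2 ± 5.79 TPM in distal libraries. The lowest 4T1 library, at 138.5 TPM, lay above the highest epithelial library, at 114 TPM. The 3 receptors ran the other way. Their summed TPM was 11.8 ± 0.696 in 4T1 in vivo and 13.7 ± 2.02 in 4T1 in vitro, against 27.5 ± 4.72 in niche libraries labelled shSox9, 21.3 ± 4.42 in niche libraries and 24.8 ± 2.78 in distal libraries. TPM levels of niche and distal libraries are not on a like scale, as the median of all genes was 0.48 higher in niche libraries in log2(TPM + 1). After TMM scaling, Erbb2 averaged 23.6 CPM in niche and 44.2 CPM in distal libraries, and Erbb3 6.77 and 45.7 CPM.

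The receptor mix also differed in its leading gene. In the 4T1 cells Erbb2 held 87.7% ± 3.84 (in vivo) and 81.9% ± 6.55 (in vitro) of the summed receptor TPM, and Egfr held 7.68% ± 3.33 and 8.44% ± 5.34. Egfr led in niche libraries labelled shSox9 with 52.6% ± 0.821 and in niche libraries with 54.6% ± 7.38. Distal libraries held the 3 receptors at similar TPM, with 32.8% ± 4.21 for Egfr, 36.2% ± 3.61 for Erbb2 and 31.0% ± 2.04 for Erbb3.

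**Figure D2:**
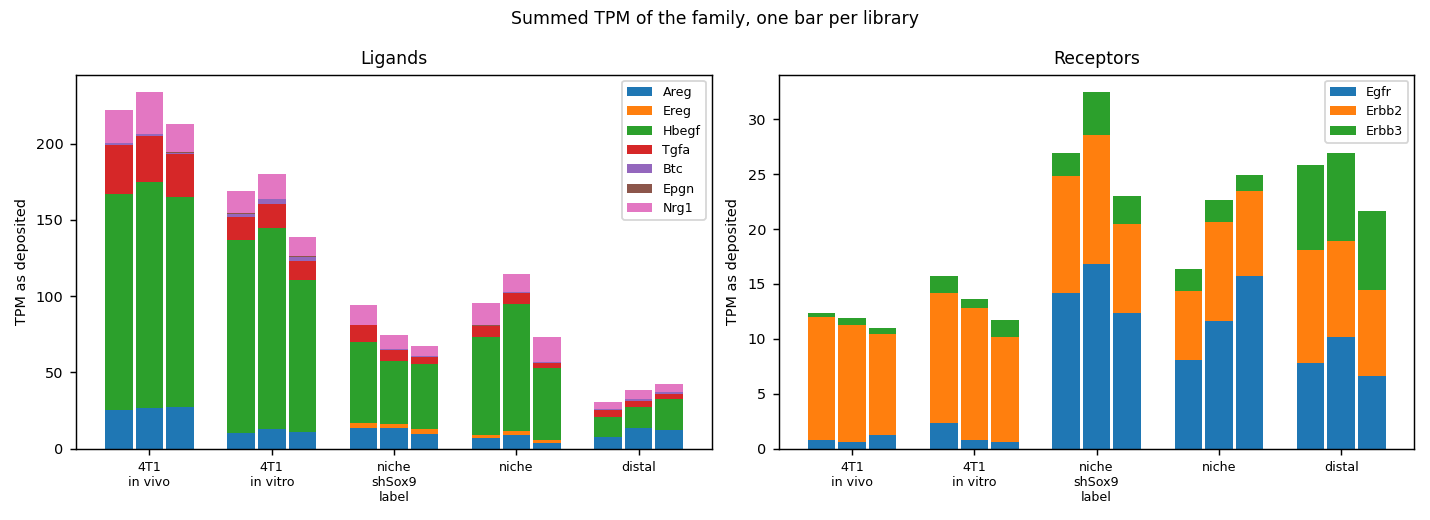
Stacked TPM, as deposited, of the 7 ligands (left) and the 3 receptors (right), with 1 bar per library in the 5 groups. Ligand bars are tallest in the 4T1 libraries, at 138.5 to 234 TPM, and receptor bars are shortest there, at no more than 15.8 TPM.

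**Figure D3:**
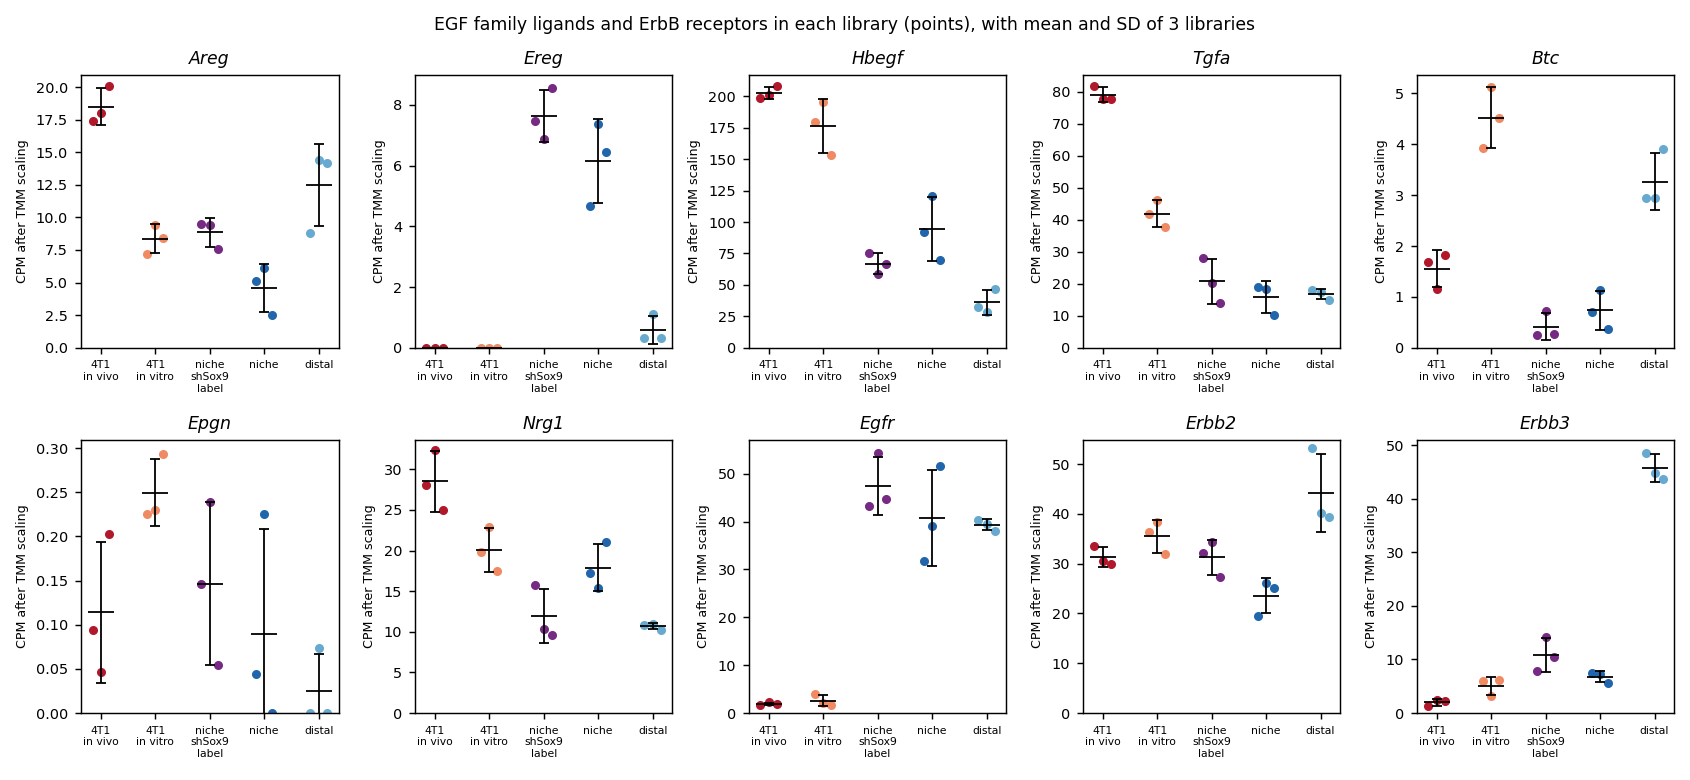
CPM after TMM scaling of each of the 10 genes, with 1 point per library and the mean and SD of 3 libraries (bars), each gene on its own linear axis from 0. Ereg is at 0 in all 6 libraries of 4T1 cells, Egfr lies at 1.74 to 3.87 CPM in 4T1 cells and at 31.8 to 54.4 CPM in epithelial libraries, and Erbb3 reaches 43.6 to 48.6 CPM in distal libraries.

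The first comparison asked how 4T1 cells growing in the lung differ from those in the dish. Areg, Tgfa and Nrg1 rose in vivo and Btc and Erbb3 fell, while the other tested members were not called. Thus 5 of the 8 tested members passed the edgeR test at an adjusted p below 0.05, 3 higher and 2 lower, against 51% of all 14022 genes tested (27% higher and 24% lower), a share close to that of genes in general. Libraries of both groups did not overlap for 6 of the 8 tested members, against 60.3% of genes. The median log2 fold change of the tested members was 0.02, against 0.01 over all genes. Marker lists of other lung cells moved both ways. Fibroblast markers summed to 27.1 to 29.8 CPM in vivo and 6.49 to 11.8 CPM in vitro. Alveolar type 2 markers summed to 171 to 641 CPM in vivo and 66.998 to 83.1 CPM in vitro. Macrophage markers summed to 15.02 to 63.6 and 10.1 to 12.5 CPM, and endothelial markers to 7.16 to 11.5 and 0.0901 to 0.21 CPM. Called higher in vivo were 4 of 6 tested macrophage, 5 of 5 endothelial, 2 of 2 neutrophil and 2 of 2 club markers, and none of these lists held a lower one. Lower in vivo were alveolar type 1 markers (40.7 to 52.8 against 96.4 to 132 CPM in vitro) and mesothelial markers (180 to 232 against 444 to 540 CPM). Basophil and mast cell markers were lower too (0.965 to 1.79 against 4.73 to 8.38 CPM). The mesothelial list and the basophil and mast cell list each had only 1 tested gene. Of 4 tested alveolar type 1 markers, 2 were called lower and 1 higher. The part of these cell types in these differences was not tested.

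Areg had 17.4, 18.02 and 20.1 CPM in 4T1 in vivo, against 7.21, 9.42 and 8.42 CPM in 4T1 in vitro. All 3 in vivo libraries lay above all 3 in vitro libraries, and the log2 fold change was 1.15 (edgeR adjusted p = 0.000132, SE 0.13). Areg lies on the plus strand of chromosome 5 (91139599 to 91148432, GRCm38). Tgfa, on chromosome 6 (86195223 to 86275719, plus strand), had 81.8, 77.8 and 77.7 CPM in 4T1 in vivo, against 41.7, 46.2 and 37.9 CPM in 4T1 in vitro. Its groups did not overlap either, and its log2 fold change was 0.92 (edgeR adjusted p = 6.3e-05, SE 0.10). Btc moved in the opposite direction, with 1.70, 1.15 and 1.82 CPM in vivo, against 3.92, 5.12 and 4.53 CPM in vitro. This ligand gene lies on the minus strand of chromosome 5 (91357261 to 91402994), and its log2 fold change was -1.54 (edgeR adjusted p = 0.000854, SE 0.25).

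The promoters of these 3 genes are shown because Areg and Tgfa rose while Btc fell in the same cells. They run from 250 bases before to 50 bases after the RefSeq start (GRCm38.p6) on each gene's own strand, chr5:91139349-91139648 for Areg, chr6:86194972-86195271 for Tgfa and chr5:91402945-91403244 (minus strand) for Btc. Capitals mark matches to a cAMP response element (TGACGTCA), an AP-1 site (TGANTCA) or a TATA box (TATAAA) on either strand.
Areg: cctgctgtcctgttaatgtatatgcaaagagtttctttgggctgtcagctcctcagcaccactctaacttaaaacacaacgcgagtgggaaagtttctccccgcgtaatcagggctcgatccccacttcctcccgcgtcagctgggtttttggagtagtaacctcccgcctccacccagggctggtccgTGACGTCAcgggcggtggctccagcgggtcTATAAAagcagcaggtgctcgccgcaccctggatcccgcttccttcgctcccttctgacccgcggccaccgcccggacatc
Tgfa: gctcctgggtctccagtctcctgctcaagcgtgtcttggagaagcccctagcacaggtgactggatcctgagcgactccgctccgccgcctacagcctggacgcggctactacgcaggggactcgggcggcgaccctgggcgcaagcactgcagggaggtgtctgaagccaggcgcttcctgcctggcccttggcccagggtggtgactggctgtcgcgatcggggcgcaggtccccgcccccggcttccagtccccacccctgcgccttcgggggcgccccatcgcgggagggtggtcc
Btc: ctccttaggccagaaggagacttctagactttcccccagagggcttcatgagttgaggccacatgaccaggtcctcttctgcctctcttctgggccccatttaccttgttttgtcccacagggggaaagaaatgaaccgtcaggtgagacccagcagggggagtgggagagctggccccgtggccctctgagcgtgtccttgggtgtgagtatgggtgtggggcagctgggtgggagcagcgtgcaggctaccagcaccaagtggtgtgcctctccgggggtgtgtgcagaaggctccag
The Areg window held 1 response element starting at position -61 and 1 TATA box starting at position -31 from the start. These letters occur in 1.79% and 13.6% of the 32851 RefSeq promoter windows of the same length, and an AP-1 match in 7.81%. The Tgfa and Btc windows held none of the 3 motifs. Of the 6 members with a RefSeq window (Areg, Tgfa, Btc, Epgn, Egfr and Erbb2), the only other match was a TATA box in Epgn at position -86.

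Nrg1, the neuregulin gene, which spans 1069 kb of chromosome 8 (31814551 to 32884029, minus strand), rose by less. It had 28.1, 32.4 and 25.0 CPM in 4T1 in vivo, against 19.9, 23.0 and 17.5 CPM in 4T1 in vitro, without overlap and with a log2 fold change of 0.51 (edgeR adjusted p = 0.0119, SE 0.14). Hbegf, the gene with the highest ligand TPM, had 199, 201 and 208 CPM in vivo, against 179, 196 and 153 CPM in vitro. Its 3 in vivo libraries lay just above the in vitro ones, but the log2 fold change of 0.21 was not called (edgeR adjusted p = 0.0977, SE 0.10), with a 95% interval of -0.01 to 0.43. Ereg had 0 counts in all 6 libraries of 4T1 cells. Epgn had 7 counts over the 3 in vivo libraries and 19 over the 3 in vitro libraries, too few for the filter, and it was tested in no comparison.

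Among the receptors, Erbb3 had 1.32, 2.39 and 2.23 CPM in 4T1 in vivo, against 5.95, 3.12 and 6.08 CPM in 4T1 in vitro. The groups did not overlap, and the log2 fold change was -1.34 (edgeR adjusted p = 0.00783, SE 0.33). Erbb2 had 33.5, 30.5 and 29.9 CPM in vivo, against 36.3, 38.4 and 31.9 CPM in vitro. Its ranges overlapped, and its log2 fold change of -0.18 was not called (edgeR adjusted p = 0.193, SE 0.11, 95% interval -0.41 to 0.06). Egfr had 1.74, 2.21 and 1.82 CPM in vivo, against 3.87, 2.10 and 1.76 CPM in vitro, where the first library was the only one above 2.21 CPM. Its log2 fold change of -0.41 was not called and had a wide 95% interval, -1.18 to 0.36 (edgeR adjusted p = 0.343, SE 0.34). On the deposited TPM scale, with limma on log2(TPM + 1), the falls of Btc and Erbb3 were smaller, -0.80 (limma adjusted p = 0.00197) and -0.58 (limma adjusted p = 0.0236), a scale that understates changes of low genes.

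Other genes of the pathway were read from 5 lists, none of which was tested as a set. The counts of these lists stand beside 27% of all genes tested called higher and 24% called lower in this comparison. Of 15 genes known as output of MAP kinase signalling, 10 rose and 3 fell in 4T1 in vivo (median log2 fold change 0.37). They included the immediate early genes Fos (log2 fold change 7.92), Egr1 (4.97) and Ier2 (3.03), while the ephrin receptor gene Epha4 fell by 3.27 on the log2 scale. Fos had 280 to 461 CPM in vivo, against 1.35 to 1.61 CPM in vitro. In vivo cells came from dissociated lungs and in vitro cells from a dish, which cannot be told apart from the growth site in this design. Of 20 genes for receptor turnover and feedback, 4 rose and 2 fell, with Socs3 (2.39), the ERK phosphatase gene Dusp6 (1.47) and the Sprouty gene Spry2 (1.02) among the rises and Dusp4 (-0.89) among the falls. Of 10 genes for ligand release, 2 rose and 2 fell. Timp3, which codes for an inhibitor of ADAM17, had 254 counts in vivo and 6 in vitro (log2 fold change 5.58). Its level in vivo was low, at 3.30 to 5.16 CPM, against 747 to 1059 CPM in niche libraries. The part of RNA from other lung cells in this rise was not tested. The convertase gene Furin rose by 0.47, and the metalloprotease genes Adam12 (-2.05) and Adam9 (-0.31) fell. Of 20 adaptor and relay genes, 4 rose and 3 fell, with the largest changes in Stat3 (0.89), Sos2 (0.75), Gab1 (0.74) and Mapk3 (0.65). Of the remaining family genes, Egf, Nrg2 and Nrg4 were tested here and in each other comparison and were called in none. Nrg3 had 0 counts in all 15 libraries, and Erbb4 had 3 counts in the distal group, 2 in the niche group and 0 in the other 3 groups.

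**Figure D4:**
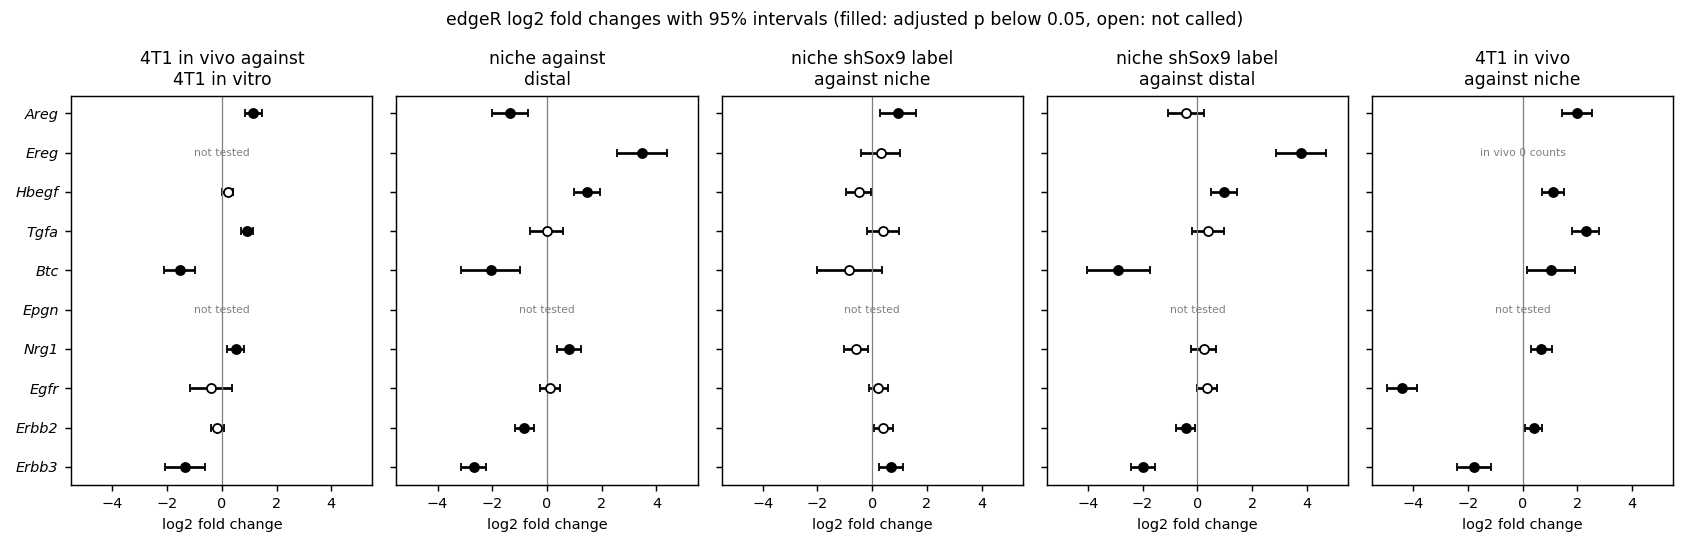
edgeR log2 fold changes of the 10 genes (rows) in the 5 comparisons (panels), with 95% intervals, where filled points have an adjusted p below 0.05. Ereg is furthest from 0 in the comparisons of the niche groups with distal lung (3.46 and 3.77), and Egfr lies at -4.40 in the comparison of 4T1 in vivo with niche, where Ereg is not drawn because it had 0 counts in 4T1 in vivo.

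The second comparison set the sorted libraries of the metastatic niche against those of distal lung. Ereg, Hbegf and Nrg1 were higher in niche libraries, and Areg, Btc, Erbb2 and Erbb3 were lower. These were 7 of the 9 tested members, 3 higher and 4 lower, against 54.3% of all 17640 genes tested (28.5% higher and 25.8% lower). The same 7 had no overlap between the libraries of both groups, against 63.7% of genes. The median log2 fold change of the tested members was -0.02, against 0.02 over all genes. On the deposited TPM scale the median of all genes shifted to 0.48, and 9212 genes were called higher and 2397 lower by limma on log2(TPM + 1), against 5025 higher and 4554 lower in the edgeR fit. The differences of Ereg (1.55), Btc (-0.62) and Erbb3 (-1.64) were smaller on that scale than in the edgeR fit and were still called. The lists of alveolar type 2 markers (10 of 10 lower), alveolar type 1 markers (5 of 6 lower), fibroblast markers (5 of 6 higher) and macrophage markers (8 of 8 higher) moved in the same comparison, and their part in these differences was not tested.

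Ereg had 4.66, 7.38 and 6.44 CPM in niche libraries, against 0.335, 1.11 and 0.307 CPM in distal libraries, or 374 counts against 24 in all. Each niche library lay above every distal library, 11.02-fold higher in the fit (log2 fold change 3.46, edgeR adjusted p = 3.97e-05, SE 0.42). Without the second distal library, the highest of its group, the log2 fold change was 4.30 (edgeR adjusted p = 1.75e-05). Ereg, at 91074622 to 91093646 on the plus strand of chromosome 5, had 0 counts in all 6 libraries of 4T1 cells. Hbegf had 92.1, 121 and 70.1 CPM in niche libraries, against 32.5, 28.6 and 46.9 CPM in distal libraries. It did not overlap between the groups, with a log2 fold change of 1.46 (edgeR adjusted p = 0.00016, SE 0.21). Nrg1 had 17.3, 15.4 and 21.1 CPM in niche libraries, against a narrow range of 10.8, 10.98 and 10.3 CPM in distal libraries, and its log2 fold change was 0.81 (edgeR adjusted p = 0.00523, SE 0.20).

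Areg and Btc were lower in the niche. Areg had 5.15, 6.12 and 2.54 CPM in niche libraries, against 8.84, 14.4 and 14.2 CPM in distal libraries. The third niche library was the lowest of all 15, the groups did not overlap, and the log2 fold change was -1.35 (edgeR adjusted p = 0.00275, SE 0.30). On the TPM scale it was -0.74 (limma adjusted p = 0.0498). Btc, the least abundant of the called members in niche libraries, had 0.704, 1.13 and 0.372 CPM, against 2.95, 2.95 and 3.91 CPM in distal libraries. These were 47 counts in the niche group and 135 in the distal group, with a log2 fold change of -2.05 (edgeR adjusted p = 0.00413, SE 0.49). Tgfa had 19.0, 18.3 and 10.2 CPM in niche libraries, against 17.9, 17.5 and 15.03 CPM in distal libraries. Its ranges overlapped, and its log2 fold change of -0.02 (edgeR adjusted p = 0.964, SE 0.27) had a 95% interval of -0.60 to 0.57. It was positive, at 0.43 and not called, on the TPM scale (limma adjusted p = 0.203).

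Erbb3, at 128567523 to 128589652 on the minus strand of chromosome 10, showed the largest receptor difference between these groups. It had 7.43, 7.25 and 5.64 CPM in niche libraries, against 48.6, 44.7 and 43.6 CPM in distal libraries, 6.40-fold lower in the niche (log2 fold change -2.68, edgeR adjusted p = 1.55e-06, SE 0.21). Erbb2, on the plus strand of chromosome 11 (98412470 to 98437716), had 19.5, 26.2 and 25.1 CPM in niche libraries, against 53.2, 40.1 and 39.3 CPM in distal libraries. The groups did not overlap in CPM, and the log2 fold change was -0.84 (edgeR adjusted p = 0.000921, SE 0.16). On the TPM scale, where all genes shifted by 0.48, the Erbb2 difference was -0.20 and was not called (limma adjusted p = 0.374). Erbb2 overlaps Mien1 on the opposite strand, which had up to 1033 expected counts in a library, and without a known strand setting the reads of the overlap cannot be told apart. Egfr, on the plus strand of chromosome 11 (16752203 to 16918158), had 31.8, 39.0 and 51.6 CPM in niche libraries, against 40.4, 39.6 and 38.0 CPM in distal libraries. The niche libraries spread on both sides of the distal ones, and the log2 fold change was 0.12 (edgeR adjusted p = 0.568, SE 0.16, 95% interval -0.24 to 0.48). It was -0.08 without the third niche library (edgeR adjusted p = 0.653).

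Of the 10 genes for ligand release, 7 were higher in niche libraries and 1 was lower, with a median log2 fold change of 0.71. The share of all genes tested, for this and the next lists, was 28.5% higher and 25.8% lower. The named changes were Adam12 (3.01), Furin (1.01), Adam17 (1.00), which codes for the main sheddase of these ligands, and Rhbdf1 (0.85), which codes for a partner of ADAM17 in its transport. Adam17 had 118, 126 and 131 CPM in niche libraries, against 65.2, 62.3 and 68.3 CPM in distal libraries. Of 20 turnover and feedback genes, 8 were higher and 5 lower. Dusp6 was higher by 1.11, and the ubiquitin ligase gene Cblc (-2.48), Spry1 (-1.12) and the EGF receptor inhibitor gene Errfi1 (-1.07) were lower. Of 15 MAP kinase output genes, 6 were higher and 4 lower. Fosl1 (3.45), Etv4 (3.44) and the urokinase receptor gene Plaur (2.50) were higher, and Etv5, which is also an alveolar type 2 marker here, was lower by 3.09.  Of 20 adaptor and relay genes, 6 were higher and 6 lower, led by Pik3ca (-1.31), Akt1 (1.05), Plcg1 (-1.02) and Gab1 (-0.86).

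The third comparison set niche epithelium labelled shSox9 against niche epithelium. Areg and Erbb3 were higher under the label and no member was called lower, 2 of 9 tested members against 20.5% of all 17640 genes tested (9.68% higher and 10.8% lower). Libraries did not overlap for 3 of 9 tested members, against 38% of genes. The median log2 fold change of the tested members was 0.31, against 0.02 over all genes. Alveolar type 2 markers were higher under the label in 9 of 10 cases and macrophage markers lower in 7 of 8, and their part in these differences was not tested.

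Areg had 9.53, 9.45 and 7.59 CPM in niche libraries labelled shSox9, against 5.15, 6.12 and 2.54 CPM in niche libraries. The groups did not overlap, and the log2 fold change was 0.93 (edgeR adjusted p = 0.0477, SE 0.30). The call was lost when any of 5 of the 6 libraries was left out, with edgeR adjusted p between 0.0688 (without the third labelled library) and 0.121 (without the second), and it held only without the second niche library. Erbb3 had 7.92, 14.2 and 10.5 CPM in niche libraries labelled shSox9, against 7.43, 7.25 and 5.64 CPM in niche libraries. The first labelled library lay close to the niche range, and the log2 fold change was 0.68 (edgeR adjusted p = 0.0348, SE 0.20). This call held without the first labelled library and was lost without any of the other 5, at edgeR adjusted p of 0.0670 to 0.144. Macrophage markers summed to 103 to 465 CPM under the label and 1392 to 1549 CPM in niche libraries. Neither gene was called when the 2 groups were fitted alone (edgeR adjusted p = 0.0675 for Areg and 0.0843 for Erbb3).

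Nrg1 had 15.7, 10.3 and 9.67 CPM in niche libraries labelled shSox9, against 17.3, 15.4 and 21.1 CPM in niche libraries. One labelled library reached into the niche range, and the log2 fold change was -0.59 (edgeR adjusted p = 0.058, SE 0.20). Without that first labelled library it was -0.83 (edgeR adjusted p = 0.00567). Hbegf had 75.2, 58.3 and 66.7 CPM under the label, against 92.1, 121 and 70.1 CPM in niche libraries, with a log2 fold change of -0.50 (edgeR adjusted p = 0.117, SE 0.21). Without the third niche library, the lowest of its group, it was -0.67 (edgeR adjusted p = 0.0443). Erbb2 had 32.1, 34.3 and 27.4 CPM under the label, against 19.5, 26.2 and 25.1 CPM in niche libraries, without overlap but not called (log2 fold change 0.41, edgeR adjusted p = 0.0901, SE 0.16). The remaining 4 tested members overlapped between the groups, with log2 fold changes of 0.39 for Tgfa, 0.31 for Ereg, 0.22 for Egfr and -0.83 for Btc and edgeR adjusted p of 0.310 to 0.545. Ereg had 7.48, 6.87 and 8.57 CPM under the label, with a 95% interval of -0.40 to 1.03 for its log2 fold change.

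Of 15 MAP kinase output genes, 8 were higher under the label, none was lower and 7 were not called (median log2 fold change 0.62). The share of all genes tested, for this and the next lists, was 9.68% higher and 10.8% lower. The largest were Egr1 (1.08), Ier3 (1.03), Epha4 (0.91) and Fos (0.90). Of 20 turnover and feedback genes, 6 were higher and 1 was lower, led by Errfi1 (0.85), Cblc (0.78), Lrig3 (0.73), which codes for a membrane protein of the family that limits ErbB receptors, and Spry1 (0.68). The lower gene was the ERK phosphatase gene Dusp6 (-0.62). Errfi1 had 373, 240 and 361 CPM under the label, against 194, 165 and 180 CPM in niche libraries. Of 20 adaptor genes, 4 were higher and 2 lower, among them Grb2, the adaptor that links receptors to Ras, which fell by 0.87 on the log2 scale, and Gab1 (0.55), Pik3ca (0.53) and Plcg1 (0.53). Adam19 was the only called gene of ligand release (0.47).

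Set against distal lung, niche libraries labelled shSox9 were called higher for Ereg and Hbegf and lower for Btc, Erbb2 and Erbb3. These were 5 of 9 tested members, 2 higher and 3 lower, against 43.8% of all genes tested (21.7% higher and 22% lower). Libraries did not overlap for 6 of 9, against 52.7% of genes. Alveolar type 2 (10 of 10) and type 1 markers (5 of 6) were lower, fibroblast markers (5 of 6) were higher, and 1 of 8 macrophage markers was lower. Their part in these differences was not tested. This comparison shares its distal libraries with that of niche against distal, so the values are given side by side and not as a second result. The log2 fold change from distal lung was 3.77 under the label and 3.46 in the unlabelled niche for Ereg, 0.96 and 1.46 for Hbegf, -2.88 and -2.05 for Btc, and -1.99 and -2.68 for Erbb3. The edgeR adjusted p values under the label were 3.35e-05 for Ereg, 0.00349 for Hbegf, 0.000981 for Btc and 1.69e-05 for Erbb3. The Ereg and Btc values moved with a single library, to 4.61 for Ereg without the second distal library and to -3.55 for Btc without the second labelled library. Areg, lower in the unlabelled niche (-1.35), was not called under the label (log2 fold change -0.42, edgeR adjusted p = 0.273, SE 0.29), where its range of 7.59 to 9.53 CPM overlapped the distal range of 8.84 to 14.4 CPM. The Areg difference was 0.17 on the TPM scale (limma adjusted p = 0.651). Erbb2 was lower by 0.43 on the log2 scale (edgeR adjusted p = 0.0447, SE 0.16), but the call was lost without the first (edgeR adjusted p = 0.0674) or the third (0.162) labelled library or the first (0.202) or the second (0.0514) distal library, and the sign turned on the TPM scale (0.16, limma adjusted p = 0.488). On that scale the median of all genes was 0.44, with 8789 genes called higher and 1962 lower, against 3833 higher and 3886 lower in the edgeR fit. Ereg (1.79), Btc (-0.74) and Erbb3 (-1.18) were called there with smaller differences, and Tgfa (0.77), Nrg1 (0.69) and Egfr (0.76) were called higher. Tgfa (0.37), Nrg1 (0.23) and Egfr (0.34) were not called by edgeR (adjusted p of 0.115 to 0.396), and the Nrg1 difference was -0.01 without the first labelled library. Of the genes for ligand release 6 of 10 were higher and none lower, led by Adam12 (3.31), Rhbdf1 (1.07), Adam9 (0.98) and Adam17 (0.76). The other lists gave 9 higher and 2 lower of 15 MAP kinase output genes (Etv4 3.69, Fosl1 3.52, Etv5 -2.19, Myc 2.03), 6 higher and 1 lower of 20 feedback genes (Cblc -1.70, Lrig1 1.25, Socs5 0.93, Spry4 0.88), and 5 higher and 3 lower of 20 adaptor genes (Akt1 0.84, Pik3ca -0.78, Nras 0.69, Plcg1 -0.50).

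The last comparison set the 4T1 cells recovered from the lung beside the sorted niche libraries. Areg, Hbegf, Tgfa, Nrg1, Btc and Erbb2 were higher in 4T1 in vivo, and Ereg, Egfr and Erbb3 were lower, so that all 9 tested members were called (6 higher and 3 lower), against 64.8% of all 18242 genes tested (28.9% higher and 36% lower). Libraries did not overlap for any of the 9, which held for 71.8% of genes. The members' median log2 fold change was 0.67, against -0.10 over all genes, and -0.21 over all genes with the size factors of DESeq2. On the TPM scale Egfr was lower by 2.73, Erbb3 lower by 0.86 and Btc higher by 0.57, all called by limma. Fibroblast (6 of 6), macrophage (8 of 8) and alveolar type 2 markers (9 of 10) were lower in 4T1 in vivo. Of 5 carcinoma or general epithelial markers, 3 were higher and 0 lower. The part of these cell types in these differences was not tested.

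Tgfa showed the largest ligand rise, with 77.7 to 81.8 CPM in 4T1 in vivo, against 10.2 to 19.0 CPM in niche libraries (log2 fold change 2.31, edgeR adjusted p = 3.53e-07, SE 0.23). Areg was higher by 1.99 (edgeR adjusted p = 6.71e-06, SE 0.26) and Hbegf by 1.10 (edgeR adjusted p = 9.29e-05, SE 0.19) on the log2 scale. None of these 3 ligands overlapped between the groups, and Nrg1 (log2 fold change 0.67, edgeR adjusted p = 0.004, SE 0.18) did not either. Btc, at 1.15 to 1.82 CPM in 4T1 in vivo and 0.372 to 1.13 CPM in niche libraries, was called narrowly (log2 fold change 1.05, edgeR adjusted p = 0.0351, SE 0.41). That call was lost without the first (edgeR adjusted p = 0.0912) or the third (0.103) 4T1 library or the first (0.0944) or the third (0.142) niche library, with DESeq2 (DESeq2 adjusted p = 0.0554), with the size factors of DESeq2 in edgeR (0.0590), with no filter (0.0579) and with the 2 groups fitted alone (0.0583). Ereg had 0 counts in the 3 libraries of 4T1 in vivo and 374 in the 3 niche libraries. Taking 3 counts for the 4T1 in vivo group as a whole put it 128-fold lower there. With the counting error of both groups included, the lower 95% limit of the ratio was 104-fold.

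The receptors gave the opposite picture, apart from Erbb2. Egfr had 1.74, 2.21 and 1.82 CPM in 4T1 in vivo, against 31.8, 39.0 and 51.6 CPM in niche libraries, 21.1-fold lower in the carcinoma cells (log2 fold change -4.40, edgeR adjusted p = 9e-10, SE 0.26). Erbb3 had 1.32 to 2.39 CPM in 4T1 in vivo and 5.64 to 7.43 CPM in niche libraries (log2 fold change -1.78, edgeR adjusted p = 5.99e-05, SE 0.29). Erbb2 was higher in 4T1 in vivo by 0.41 on the log2 scale (edgeR adjusted p = 0.0205, SE 0.14), a call that was lost without the first (edgeR adjusted p = 0.0984) or the second (0.0511) 4T1 library or the first niche library (0.149). It was also lost with DESeq2 (0.29, DESeq2 adjusted p = 0.0972), with the size factors of DESeq2 in edgeR (0.29, edgeR adjusted p = 0.0803) and on the TPM scale (0.39, limma adjusted p = 0.0566).

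Of the 10 genes for ligand release, 7 were lower in 4T1 in vivo than in niche libraries and none was higher. The share of all genes tested, for this and the next lists, was 28.9% higher and 36% lower, 64.8% in all. Timp3 was lower by 7.79 on the log2 scale, with 3.30, 3.77 and 5.16 CPM in 4T1 in vivo, against 747, 1059 and 886 CPM in niche libraries, and Adam19 (-1.72), Rhbdf2 (-1.43) and Adam9 (-0.90) were lower too. Of 20 adaptor genes, 2 were higher and 7 lower, led by Gab1 (-1.94), Pik3r1 (-1.88), Mapk3 (-1.60) and Stat3 (-1.43). Of 20 turnover and feedback genes, 8 were higher and 7 lower, with Lrig3 (-3.76), Cblb (-2.25) and Socs3 (-1.74) lower and Eps8, which codes for an EGF receptor substrate, higher by 1.53. The 15 MAP kinase output genes split into 7 higher, among them Fosl1 (2.90), the cyclin D1 gene Ccnd1 (2.11) and Etv4 (1.86), and 7 lower, led by Fos (-2.20).

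Since niche libraries held 22.7% of the 4T1 in vivo level of the carcinoma panel, the members' levels there are given on the same scale, as a description and without correction. Relative to their mean CPM in 4T1 in vivo, niche libraries held Areg at 24.9% ± 10.0, Tgfa at 20.02% ± 6.22, Hbegf at 46.5% ± 12.5 and Nrg1 at 62.8% ± 10.1 (SD, n = 3 each). Niche libraries labelled shSox9, with the panel at 20.05%, held Areg at 47.9% ± 5.92, Tgfa at 26.3% ± 8.95, Hbegf at 32.9% ± 4.17 and Nrg1 at 41.7% ± 11.7. Distal libraries, with the panel at 1.36%, held these 4 ligands at 67.4% ± 17.0 (Areg), 21.3% ± 1.997 (Tgfa), 17.8% ± 4.77 (Hbegf) and 37.4% ± 1.27 (Nrg1). In niche libraries the Areg and Tgfa levels lay near the panel's share, and the Hbegf and Nrg1 levels lay above it. Under the label Areg, Hbegf and Nrg1 lay above it. Tgfa stood at a similar level in niche (20.02%) and distal (21.3%) libraries. The panel's low share in distal libraries follows from how its genes were chosen, so the distal levels are not read against it. How much of the ligand RNA in niche libraries came from 4T1 cells was not tested. Egfr stood in niche libraries at 2120% ± 522 of its 4T1 level, and Ereg had 0 counts in 4T1 cells.

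Over the 5 groups, the order of Areg levels (mean CPM) was 18.5 in 4T1 in vivo, 12.5 in distal, 8.85 in niche libraries labelled shSox9, 8.35 in 4T1 in vitro and 4.60 in niche libraries. Distal libraries, labelled niche libraries and 4T1 in vitro libraries overlapped with the next in this order, while 4T1 in vivo and niche libraries stood apart at either end. Hbegf and Tgfa fell into a 4T1 level (153 to 208 CPM for Hbegf, 37.9 to 81.8 CPM for Tgfa) and an epithelial level (28.6 to 121 CPM and 10.2 to 28.2 CPM), with no epithelial library reaching the 4T1 range. Nrg1 ran from 28.5 CPM in 4T1 in vivo through 20.1 in 4T1 in vitro, 17.9 in niche libraries and 11.9 in niche libraries labelled shSox9 to 10.7 in distal libraries, and each neighbouring pair below 4T1 in vivo overlapped. For Egfr the shared edgeR fit did not call a difference between niche libraries labelled shSox9 (47.4 CPM), niche libraries (40.8 CPM) and distal libraries (39.3 CPM). The labelled and distal libraries did not overlap, and their difference was called when those 2 groups were fitted alone (0.34, edgeR adjusted p = 0.0494). It was also called on the TPM scale (0.76, limma adjusted p = 0.0157), where the median of all genes was itself 0.44. The 4T1 groups overlapped for Egfr (1.92 CPM in vivo and 2.58 CPM in vitro). Erbb2 stayed within 19.5 to 53.2 CPM in all 15 libraries, the narrowest spread of the 3 receptors. Btc was highest in 4T1 in vitro (4.52 CPM) and distal libraries (3.27 CPM), and Erbb3 in distal libraries (45.7 CPM).

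Epgn, Ereg, Areg and Btc lie in this order within 375.5 kb of chromosome 5, with gaps of 39.4, 45.95 and 208.8 kb and 0 other protein-coding genes in any gap. The 4 neighbours did not move together. In 4T1 in vivo against in vitro Areg rose, Btc fell, Ereg had 0 counts and Epgn had too few counts to test. In niche against distal libraries Ereg was higher while Areg and Btc were lower. The Tgfa, Nrg1, Egfr and Ereg loci also hold overlapping gene models, with at most 57 expected counts (Egfros, within Egfr) in a library.

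The genes whose log2(CPM + 1) followed 3 of the members most closely over the 15 libraries were found among 12502 genes, as a description that the 5 groups largely set. For Areg they were Eva1c (Pearson r 0.925), Nbea (0.923), Glt28d2 (0.921), Rap1gap (0.915) and Pdgfa (0.901). For Egfr they were Fam214b (0.995), Dennd4a (0.994), Clec11a (0.994), Unc5c (0.994) and Nol3 (0.993), all sharing its step between 4T1 and epithelial libraries. For Nrg1 they were Zgrf1 (0.955), Sh2b3 (0.952), Trim65 (0.946), Ermp1 (0.944) and Bend6 (0.939).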

How the data were processed

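The authors' deposited tables, 1 per library, hold expected counts, TPM and FPKM per gene. They were made with RSEM on GRCm38, per the submitters' processing notes, which also name DESeq2. Versions, aligner, annotation and strand setting were not given in the sources used here. Deposited expected counts are estimates (11.8% to 14.1% of values per library were not whole) and were rounded before testing. Deposited TPM, scaled by the authors for transcript length, served for levels between genes and for 1 alternative; FPKM was not used. Of 54838 identifiers, 54809 matched GENCODE M21.

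Counts were tested with edgeR 4.0.16 in R 4.3.3 (quasi-likelihood F-test, TMM, filterByExpr, Benjamini-Hochberg adjustment over all genes tested, threshold 0.05). The 6 libraries of 4T1 cells, the 9 epithelial libraries and, for 4T1 in vivo against niche, all 15 libraries were each fitted together. CPM levels use TMM over 15 libraries, with factors of 0.776 to 0.843 in distal libraries and 0.996 to 1.14 in the others. SD is over 3 libraries. Standard errors were derived from the F statistic. Replicate pairs differed by more than sampling noise (chi-square over its degrees of freedom 8.27 to 43.4), so none was taken for 1 library deposited again; this does not show that libraries are independent samples. The 95% intervals of fold changes come from that fit and include the spread between libraries; floors, and the limit of the Ereg ratio, cover counting error only.

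The named genes are the 10 members, up to 4 called genes of each pathway list with the largest absolute log2 fold change per comparison, and the 5 genes most like Areg, Egfr and Nrg1. Dusp6 is also named in the third comparison, as the only gene of its list called lower there. Members and lists were chosen with earlier results of these data known. Alternatives were DESeq2 1.42.0, its size factors, no filter, limma 3.58.1 on log2(TPM + 1), fitting 2 groups alone, a replicate block and leaving out each library. Replicate numbers stand here for the letters A, B and C of the sample titles, and 1 distal library titled R1 was set as replicate 1. In niche libraries labelled shSox9 and niche libraries, same-numbered samples deviated together (correlations of 0.198, 0.142 and 0.171), so the title letters may mark pairs. The block changed no member's call there. No promoter sequence is shown for Hbegf, Ereg, Nrg1 and Erbb3.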

Additional observations from a re-analysis of the deposited data

How the results depend on the processing

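In 4T1 in vivo against in vitro, all 88 repeats under the alternatives kept each member's direction and side of the threshold. The count of members in niche libraries labelled shSox9 against niche libraries was the least stable: 2 in the edgeR fit, 4 with no filter, 0 with limma on log2(TPM + 1), 0 with the 2 groups fitted alone, and 0 to 2 when each library was left out. The count over all genes there was 3616, and 2238 to 4224 when each library was left out (lowest without the first niche library). Signs turned for members that were not called, or were close to the threshold. In niche against distal libraries the Tgfa value was 0.01 (0.0054) with no filter, 0.43 on the TPM scale, and -0.16 to 0.22 when each library was left out (0.22 without the third niche library, 0.03 and 0.013 without the first and second distal library). Egfr was -0.084 (without the third niche library) to 0.28. In niche libraries labelled shSox9 against distal libraries, Areg (0.17) and Erbb2 (0.16) turned on the TPM scale and Nrg1 was -0.015 (without the first labelled library) to 0.37. The cause was not tested. With the replicate block, 7487 genes were called in 4T1 in vivo against in vitro, 9500 in niche against distal, 3638 in labelled against unlabelled niche, 7692 in labelled niche against distal and 11906 in 4T1 in vivo against niche. The block ended 1 member call, Erbb2 in labelled niche against distal (log2 fold change -0.43, edgeR adjusted p = 0.0598), and no other. In 4T1 in vivo against niche the same-numbered correlations were positive but small (0.0194, 0.0957 and 0.0182), where differently numbered samples gave -0.121 to 0.0783. In each remaining comparison the same-numbered correlations included a negative value. The carcinoma panel share of niche libraries was 21.7% and 22.4% with 2 other sets of limits. Btc, Epgn and 4T1 Egfr rest on low counts, so small differences in them were not detectable at this depth.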

Other observations

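Among the niche libraries, the third had the lowest Areg (2.54 CPM), Hbegf (70.1 CPM), Tgfa (10.2 CPM), Btc (0.372 CPM) and Erbb3 (5.64 CPM) of its group, and the highest Nrg1 (21.1 CPM) and Egfr (51.6 CPM). It also had the lowest carcinoma panel share (14.5%, against 27.3% and 26.3%) and the lowest Epcam (29.5 CPM, against 66.6 and 71.8 CPM). Among the niche libraries labelled shSox9, the panel share (25.2%, 20.5% and 14.4%), Sox9 (84.4, 60.1 and 36.9 CPM) and Epcam (33.3, 27.1 and 23.8 CPM) fell in library order. Tgfa (28.2, 20.1 and 14.1 CPM), Areg (9.53, 9.45 and 7.59 CPM) and Nrg1 (15.7, 10.3 and 9.67 CPM) stood in the same order. The other members did not. Whether the panel's share accounts for these differences between libraries of 1 group was not tested. In 4T1 in vivo, the library with the highest macrophage marker sum (63.6 CPM, against 15.02 and 19.7 CPM) had Areg at 20.1 CPM, also the highest of its group, and Ereg at 0 counts. The same library had the highest alveolar type 2 marker sum (641 CPM), the highest Hbegf (208 CPM) and the lowest Nrg1 (25.0 CPM) of its group. Whether these levels go together was not tested.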
